A study of Mus musculus with 15 samples.

Results

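The probe sets described here are those of 4 genes of the Dlk1-Dio3 imprinted cluster on mouse chromosome 12, Meg3, Rian, Mirg and Dlk1. All probe sets that the platform annotation gives to one of these symbols were taken, which made 19 of the 45037 probe sets on the array: 11 for Meg3, 4 for Rian, 2 for Mirg and 2 for Dlk1. A probe set is a group of short probes on the array that together report 1 transcript or several. Meg3 was selected on its log2 difference between lesions and normal lung cells in these same arrays, and the other genes as its neighbours in the cluster, so the values against normal cells are given as descriptions without a test.

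The arrays came from K-RasG12V knock-in mice, whose mutant allele also carries a colour marker that shows which cells express it. All mice, and so all groups, had received an adenovirus carrying Cre recombinase in vivo 3 months before the lungs were frozen. Early hyperplastic lesions of about 500 cells were cut out by laser capture microdissection, and the labels divide them into an H2 subtype (4 arrays, replicates 1, 5, 6 and 7) and an H1 subtype (3 arrays, replicates 2, 3 and 4). Normal cells (8 arrays, replicates 1 to 8) were captured from the same lung sections, so they too come from knock-in animals exposed to the virus. The sources used here do not give the sex, age, strain or number of the mice, which captures shared an animal, or the basis on which lesions were sorted into the 2 subtypes. If the subtypes were assigned from these same profiles, a difference between them is not independent of that assignment.

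An imprinted gene is transcribed mainly from the chromosome of 1 parent. In the Dlk1-Dio3 domain the maternal chromosome expresses the long non-coding RNAs Meg3 (also called Gtl2), Rian and Mirg, while the paternal chromosome expresses protein-coding genes, among them Dlk1. A methylated control region between Dlk1 and Meg3 sets which side is active. Meg3 RNA binds Polycomb repressive complex 2 (PRC2), and its human counterpart raises p53 activity and is lost in several tumours. Rian carries a cluster of small nucleolar RNAs in its introns, Mirg is the host of a large microRNA cluster, and Dlk1 is a transmembrane protein of the Notch ligand family that lacks the usual receptor-binding motif and is high in fetal tissue. The arrays do not tell the parental alleles apart.

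The promoter windows of Meg3 and Rian are shown because these were the members with the highest values in the lesions, and they differ in content. Both were read from RefSeq (GRCm38.p6, plus strand) and span 300 bases around the gene start, most of them upstream. In the Meg3 window, capitals mark TGACGTCA, the cyclic AMP response element, and an overlapping pair of TATAAA matches, 1 on each strand.
Meg3 promoter, chr12:109540746-109541045: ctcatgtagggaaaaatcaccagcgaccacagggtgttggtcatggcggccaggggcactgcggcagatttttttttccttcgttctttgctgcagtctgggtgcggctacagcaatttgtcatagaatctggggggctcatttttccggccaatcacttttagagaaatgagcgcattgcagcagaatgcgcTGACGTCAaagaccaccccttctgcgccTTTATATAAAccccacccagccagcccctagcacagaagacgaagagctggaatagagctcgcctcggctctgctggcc
Rian promoter, chr12:109603695-109603994: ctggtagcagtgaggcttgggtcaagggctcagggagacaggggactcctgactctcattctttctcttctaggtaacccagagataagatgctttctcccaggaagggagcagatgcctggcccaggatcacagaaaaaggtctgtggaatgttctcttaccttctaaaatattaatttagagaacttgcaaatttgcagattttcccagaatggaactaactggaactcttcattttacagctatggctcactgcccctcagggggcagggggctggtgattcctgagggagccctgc
The letters TGACGTCA began 57 bases before the Meg3 start, and TATAAA on the plus strand began 25 bases before it. TGACGTCA occurred on either strand in 1.79% of the 32851 promoter windows of the same length, and TATAAA in 13.6% of them. The Meg3 window held 13 CpG dinucleotides, against 0 in the Rian window, 10 in that of Mirg and 9 in that of Dlk1. Neither TGACGTCA nor TATAAA was found in the windows of Rian, Mirg or Dlk1, or in a second, downstream window that RefSeq lists for Meg3, which held 1 CpG. CCAAT, present in 37.4% of all windows, occurred once in the first Meg3 window, 100 bases before the start, and once in that of Mirg. A match describes these letters only, and methylation and factor binding were not measured.

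RefSeq places 58 microRNA genes with 114 mature products between Dlk1 and Dio3. Of these, 2 genes lie within Meg3, 3 within Rian and 10 within Mirg. The mature sequences inside Meg3 and Rian are given because a probe set for the host transcript says nothing of how much of each is processed, and the arrays did not measure them. Capitals mark the seed, bases 2 to 8, which pairs with targets, and all 9 seeds differ.
miR-1906 (in Meg3, chr12:109544588-109544609): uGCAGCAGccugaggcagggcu
miR-770-5p (in Meg3, chr12:109563710-109563731): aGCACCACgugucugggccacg
miR-770-3p (in Meg3, chr12:109563744-109563765): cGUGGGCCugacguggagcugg
miR-341-5p (in Rian, chr12:109611521-109611541): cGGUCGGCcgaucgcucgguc
miR-341-3p (in Rian, chr12:109611556-109611576): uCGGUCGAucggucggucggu
miR-1188-5p (in Rian, chr12:109611841-109611861): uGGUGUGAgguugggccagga
miR-1188-3p (in Rian, chr12:109611877-109611901): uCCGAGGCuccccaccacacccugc
miR-370-5p (in Rian, chr12:109618270-109618289): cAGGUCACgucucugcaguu
miR-370-3p (in Rian, chr12:109618305-109618326): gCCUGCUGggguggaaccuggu

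On 3 of the 11 Meg3 probe sets every lesion lay above every normal array. The probe set with the strongest signal, 1439380_x_at, read 10.40, 10.53, 9.92 and 10.96 on the log2 scale in H2 replicates 1, 5, 6 and 7, and 8.00, 8.10 and 8.28 in H1 replicates 2, 3 and 4. In the 8 normal arrays it ranged from 3.86 to 6.03 with a median of 4.34. All H2 arrays lay above all H1 arrays, and all H1 arrays lay above all normal arrays, of which replicate 1 was the highest. The difference between the 7 lesions and normal cells was 4.93 ± 0.47 (log2, SE), or 30.5-fold. It was 5.93 ± 0.32 in H2 (60.8-fold) and 3.60 ± 0.35 in H1 (12.1-fold). In each of these 3 comparisons it stood at rank 1 of the 45037 probe sets when they were ordered by difference. With quantile normalization repeated on the probe set values, its difference from normal was 5.24 in H2 and 3.83 in H1. For scale, the median of all probe set means was 3.99, and values near it are close to background, so the fold over normal cells depends on how background is summarised. The suffix x_at is Affymetrix's mark for a probe set in which some probes also match other sequences, and the annotation lists no source sequence for this one.

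The other two high Meg3 probe sets were designed from 1 shared source sequence, and neither carries a cross-match suffix. Probe set 1428764_at read 5.95, 8.59, 8.17 and 9.72 in H2 replicates 1, 5, 6 and 7, and 7.08, 6.43 and 7.36 in H1 replicates 2, 3 and 4, against 2.91 to 5.47 in normal cells (median 4.45). Probe set 1452905_at read 6.51, 8.10, 8.11 and 10.34 in the same H2 arrays, and 6.52, 6.80 and 6.27 in the H1 arrays, against 2.77 to 5.11 in normal cells (median 4.41). On both, every lesion lay above every normal array, but H2 replicate 1 sat among or below the H1 lesions, so that H2 and H1 overlapped. The lesions exceeded normal cells by 3.24 ± 0.48 on 1428764_at (9.45-fold) and by 3.39 ± 0.54 on 1452905_at (10.4-fold). The H2 arrays exceeded normal cells by 3.74 ± 0.53 and 4.13 ± 0.56 on these probe sets in that order, and the H1 arrays by 2.58 ± 0.59 and 2.40 ± 0.62. Across the 15 arrays the 3 high Meg3 probe sets followed each other with Pearson r between 0.89 and 0.90, which includes the differences between groups. As deviations from the 3 group means, r was 0.41 for 1439380_x_at with 1428764_at, 0.15 for it with 1452905_at, and 0.51 for the last pair.

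**Figure D1:**
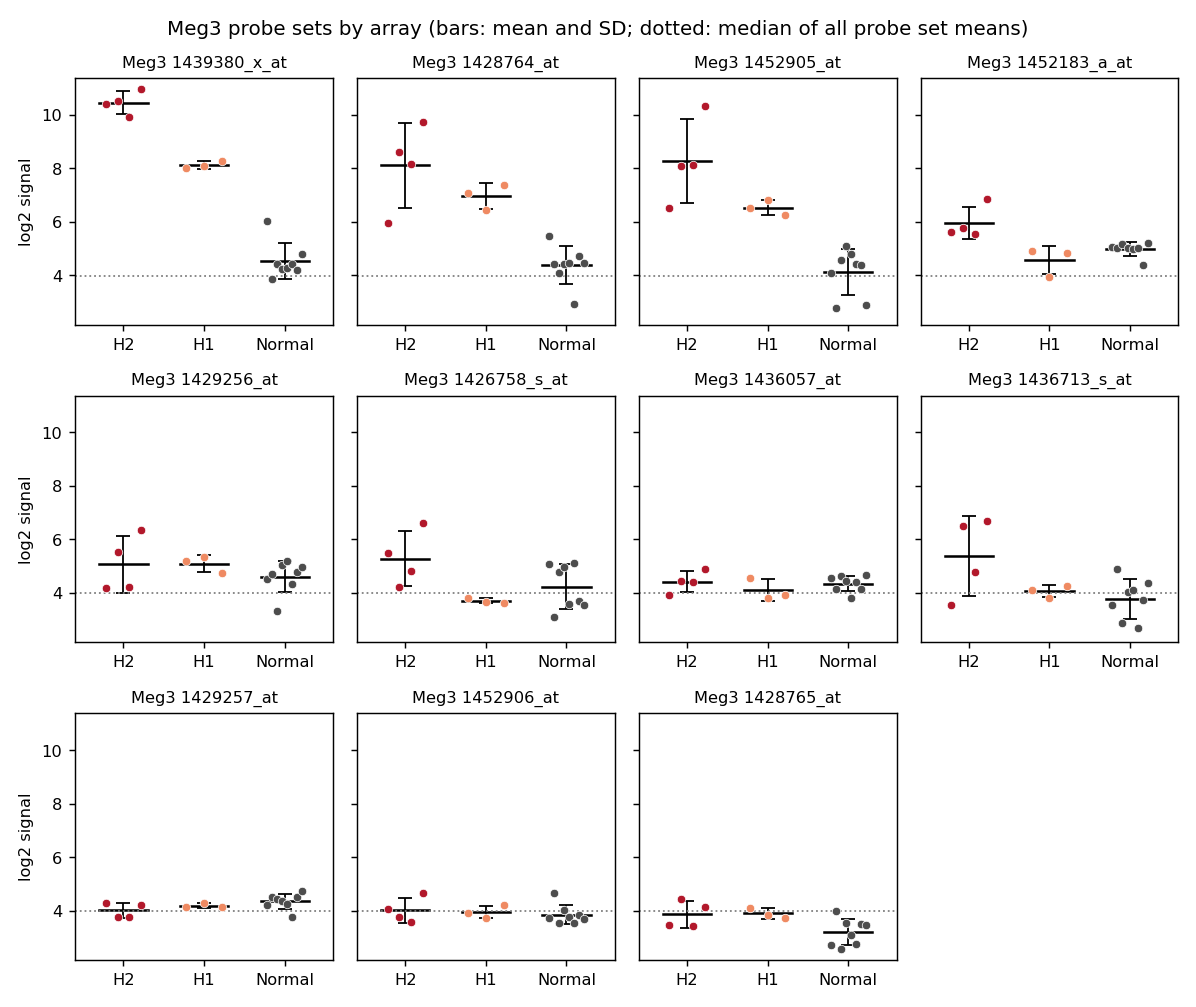
Log2 signal of each of the 11 Meg3 probe sets (vertical axis) in H2, H1 and normal arrays (points), with the mean and SD of each group and a dotted line at 3.99, the median of all probe set means. On 1439380_x_at the 4 H2 arrays sit between 9.92 and 10.96 and the 3 H1 arrays between 8.00 and 8.28, above all normal arrays. On 1428764_at and 1452905_at all lesions also lie above all normal arrays. Probe sets 1452183_a_at, 1429256_at, 1426758_s_at and 1436713_s_at average 5.07 to 5.95 in H2. Only 1436057_at, 1429257_at, 1452906_at and 1428765_at stay near the dotted line in all groups, with group means of 3.20 to 4.42.

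The remaining 8 Meg3 probe sets gave much smaller values. Probe set 1436713_s_at read 3.56, 6.51, 4.80 and 6.67 in H2 replicates 1, 5, 6 and 7 and 4.10, 3.83 and 4.27 in the H1 arrays, against 2.68 to 4.91 in normal cells (median 3.87). It was high in H2 replicates 5 and 7 and lay within the normal range in all H1 arrays. Probe set 1452183_a_at read 5.63, 5.78, 5.54 and 6.84 in H2 and 4.90, 3.95 and 4.85 in H1, against 4.38 to 5.20 in normal cells (median 5.02). There H2 lay above both other groups and the H1 mean was lower than the normal mean, with differences from normal of 0.97 ± 0.26 for H2 and -0.41 ± 0.28 for H1. The other probe set from its source sequence, 1426758_s_at, differed from normal by 1.05 ± 0.45 in H2 and by -0.52 ± 0.50 in H1. The remaining 5 probe sets (1429256_at, 1436057_at, 1429257_at, 1452906_at and 1428765_at) differed between lesions and normal cells by -0.27 to 0.67. One of them, 1428765_at, comes from the same source sequence as the high pair 1428764_at and 1452905_at, yet it averaged 3.86 in H2, 3.89 in H1 and 3.20 in normal cells. The positions of the probes along the Meg3 transcripts were not analysed here.

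Rian, the next member downstream of Meg3, was higher in most lesions on 3 of its 4 probe sets, with wide spread. Probe set 1427580_a_at read 3.57, 7.32, 8.21 and 10.25 in H2 replicates 1, 5, 6 and 7 and 6.98, 4.07 and 6.92 in H1 replicates 2, 3 and 4, against 2.82 to 5.49 in normal cells (median 3.98). H2 replicate 1 and H1 replicate 3 lay within the normal range and the other 5 lesions above it. The lesions exceeded normal cells by 2.69 ± 0.79 (6.43-fold), which was rank 18 of all probe sets. The value was 3.22 (9.30-fold) without H2 replicate 1, and 2.10 (4.30-fold) without H2 replicate 7.

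Probe set 1452899_at, the Rian probe set with the highest mean, read 4.91, 8.85, 8.65 and 10.45 in H2 replicates 1, 5, 6 and 7 and 7.97, 7.28 and 7.59 in the H1 arrays, against 4.09 to 6.94 in normal cells (median 6.57). All 3 H1 lesions and 3 of 4 H2 lesions lay above the normal arrays, and again H2 replicate 1 did not. The difference was 1.98 ± 0.74 for H2 and 1.38 ± 0.82 for H1. For H2 it was 3.08 without replicate 1 and 1.24 without replicate 7. With quantile normalization repeated on the probe set values it was 1.10 for H2 and 1.28 for H1. Probe set 1428055_at read 4.33, 7.12, 6.89 and 8.49 in H2 and 5.52, 5.85 and 5.52 in H1, against 1.91 to 6.78 in normal cells (median 4.40). Its groups overlapped, and the lesions exceeded normal cells by 1.65 ± 0.71. On 1440001_at only H2 replicate 7, at 7.90, left the normal range upwards, and the difference was 0.13 ± 0.45, which turned to -0.32 without that array.

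The Mirg and Dlk1 probe sets differed from normal cells by less than 0.4 over the 7 lesions. Mirg 1440097_at read 4.35, 5.76, 5.06 and 6.14 in H2 and 5.28, 4.67 and 5.36 in H1, against 4.02 to 5.71 in normal cells (median 4.98), and the lesions exceeded normal cells by 0.37 ± 0.29. Mirg 1457030_at differed by 0.35 ± 0.19. Its groups overlapped, as did those of 1440097_at. Dlk1 1442724_at differed by -0.06 ± 0.17 and averaged 3.97 in H2, 3.59 in H1 and 3.87 in normal cells. Dlk1 1449939_s_at read 3.51, 4.17, 3.12 and 5.79 in H2 and 3.98, 3.42 and 3.08 in H1, against 3.11 to 4.20 in normal cells (median 3.41), with only H2 replicate 7 above the normal range. At values this close to the median of all probe sets, a low level on the Dlk1 probe sets or on Mirg 1457030_at cannot be told from background. Mirg 1440097_at averaged 5.33 in H2, 5.10 in H1 and 4.86 in normal cells, but its lowest array, at 4.02, was also close to that median. Dlk1 is the only paternally expressed gene among the members.

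**Figure D2:**
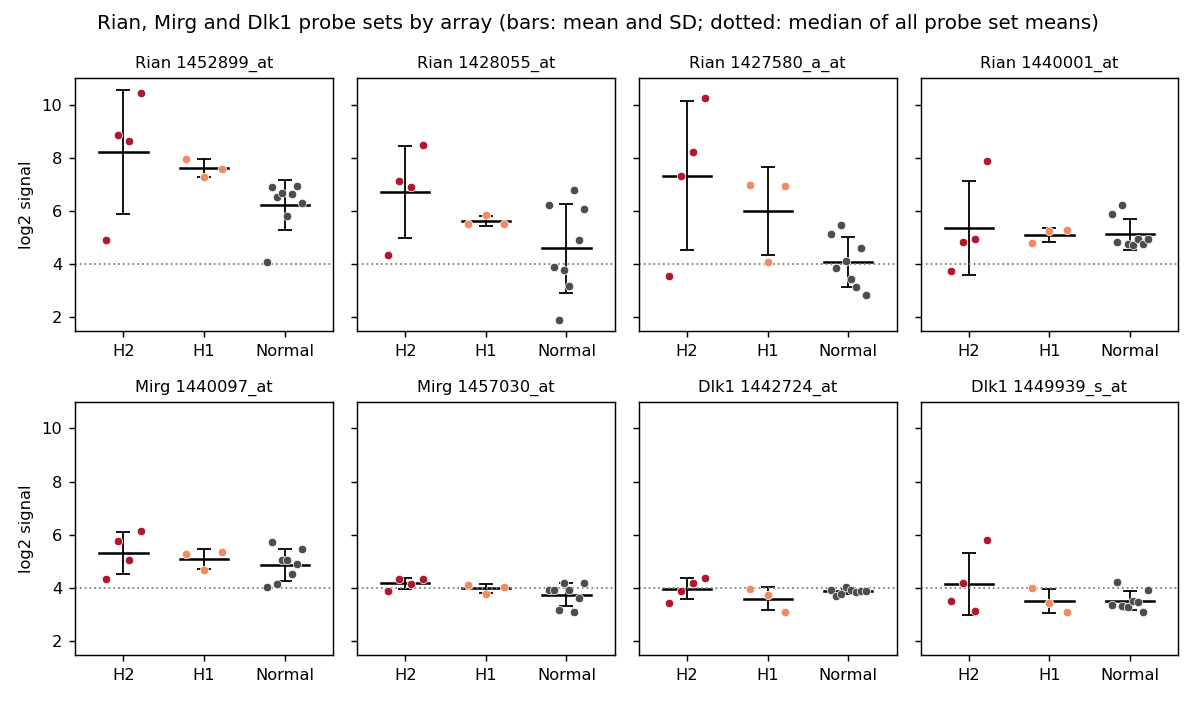
Log2 signal of the 4 Rian, 2 Mirg and 2 Dlk1 probe sets (vertical axis) in H2, H1 and normal arrays (points), with the mean and SD of each group and a dotted line at 3.99. The Rian probe sets 1452899_at, 1428055_at and 1427580_a_at are high in H2 replicates 5, 6 and 7 and low in H2 replicate 1 at 4.91, 4.33 and 3.57, and the Mirg and Dlk1 points of all groups mix.

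Counted over all 19 members, 16 had a higher mean in lesions than in normal cells and 3 a lower one, with a median difference of 0.38, where the median of all probe sets was -0.07 and 39.6% of them had a higher mean in lesions. For H2 against normal the counts were 18 higher and 1 lower, beside 42.6% of all probe sets higher, and for H1 against normal 12 higher and 7 lower, beside 42.9%. Groups did not overlap, with lesions higher, for 3 members, all of Meg3, where 0.124% of all probe sets did so. The same held for 4 members in H2 (all Meg3, beside 1.93% of all probe sets) and for 4 members in H1 (3 of Meg3 and 1 of Rian, beside 0.42%). The H2 and H1 comparisons share the same normal arrays. The members were chosen with these contrasts known, so nothing is read from the counts.

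H2 exceeded H1 on 16 of the 19 members, where 51.4% of all probe sets were higher in H2, but no member passed the test of limma with Benjamini-Hochberg adjustment over all probe sets. That test called 0 of the 45037 probe sets, or 0%, between the subtypes, while 2768 (6.15%) were higher and 2394 (5.32%) lower in H2 at an unadjusted p under 0.05. Of the members, 4 were higher at that level and 0 lower, all of them Meg3. Meg3 1439380_x_at averaged 10.45 ± 0.43 in H2 (SD, n = 4) and 8.13 ± 0.14 in H1 (SD, n = 3). The difference was 2.33 ± 0.40 (SE, 95% interval 1.48 to 3.17), or 5.01-fold, with a limma adjusted p of 0.275, and it was rank 63 by size. Without normal replicate 1, whose value on this probe set was the highest of the normal arrays, the limma adjusted p was 0.0113, while in the fits without each of the other arrays it lay between 0.198 and 0.770. With quantile normalization repeated on the probe set values the difference was 1.41 (limma adjusted p = 0.460).

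The subtypes did not overlap on 3 Meg3 probe sets, where 8.09% of all probe sets did so with H2 higher and 8.78% with H2 lower. Besides 1439380_x_at, these were 1452183_a_at, which was 1.38 ± 0.32 higher in H2 (limma adjusted p = 0.280), and 1426758_s_at, which was 1.57 ± 0.56 higher (limma adjusted p = 0.356). On 1426758_s_at the H2 arrays read 5.47, 4.24, 4.83 and 6.60 and the H1 arrays 3.83, 3.67 and 3.64, but normal cells covered both, from 3.10 to 5.12. For the 4 Rian probe sets the H2 minus H1 difference was 0.24 to 1.35, and the widest interval, for 1427580_a_at, ran from -1.08 to 3.77. The limma adjusted p was 0.653 to 0.913 for Rian, 0.814 to 0.864 for Mirg and 0.553 to 0.598 for Dlk1. Captures may share an animal, so that p-values measure the spread between these captures and may be too small or too large.

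The lesions differed among themselves in a way that Meg3 and Rian shared in part. H2 replicate 7 had the highest value of all lesions on every one of the 3 high Meg3 probe sets and on all 4 Rian probe sets, while H2 replicate 1 had the lowest value of all lesions on every Rian probe set and on Meg3 1428764_at. Meg3 1428764_at and Rian 1427580_a_at correlated with r = 0.88 over the 15 arrays and r = 0.82 as deviations from the 3 group means. Over the 44 pairs of a Meg3 with a Rian probe set, the within-group r ranged from -0.32 to 0.82 with a median of 0.38, so these 2 are the most alike and not typical. These points share arrays, amplification and array spread, and the correlations are descriptions.

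**Figure D3:**
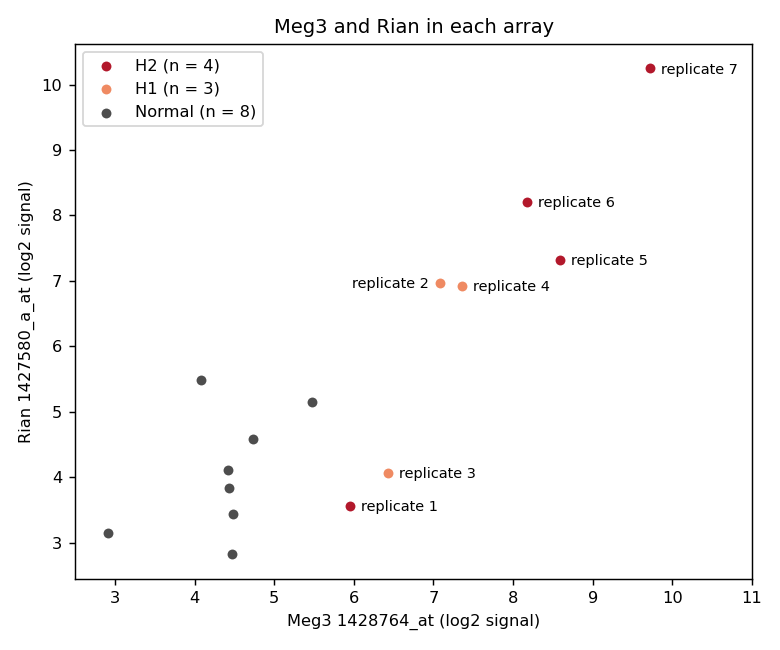
Rian 1427580_a_at (vertical axis, log2 signal) against Meg3 1428764_at (horizontal axis, log2 signal), 1 point per array, coloured by group, with lesion replicates named. H2 replicate 7 is highest on both axes at 9.72 and 10.25, and H2 replicate 1 and H1 replicate 3 have Meg3 above, and Rian within, the normal range.

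The values of some members also moved with the breadth of the array. The SD of all log2 values on an array was 1.42 to 1.68 in H2, 1.26 to 1.41 in H1 and 1.10 to 1.62 in normal arrays. Within groups, Meg3 1452905_at correlated with that SD at r = 0.61, Meg3 1426758_s_at at 0.70, Rian 1440001_at at 0.66 and Rian 1427580_a_at at 0.52, whereas Rian 1452899_at did so at 0.11. The relation ran the other way for Meg3 1428765_at (r = -0.68), Mirg 1457030_at (-0.49) and Mirg 1440097_at (-0.46). With this SD as a covariate, the difference from normal of Meg3 1439380_x_at was 5.61 in H2 and 3.57 in H1, and that of Meg3 1452905_at was 3.23 in H2, against 4.13 without the covariate. For Rian 1427580_a_at the H2 difference was 1.97 with the covariate and 3.26 without it, and for Meg3 1426758_s_at 0.24 with it and 1.05 without it. For Rian 1440001_at it was -0.72 with the covariate, against 0.23 without it. The part of array breadth in these values was not tested further. Array medians lay between 3.87 and 4.06, no pair of arrays was identical, and the correlation between arrays ranged from 0.542 to 0.936.

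The genes that flank the cluster differed from normal cells by less than the 3 high Meg3 probe sets did. Of the neighbours before Dlk1, 13 of 14 were measured, and their differences from normal ran from -0.81 to 1.09 in H2 and from -0.35 to 0.57 in H1. Of the neighbours beyond Dio3, 14 of 16 were measured, and theirs ran from -0.65 to 2.25 in H2 and from -0.38 to 0.50 in H1. None passed the limma test in any comparison at an adjusted p under 0.05, where 0.169% of all probe sets passed for lesions against normal, 0.00222% for H1 against normal and 2.04% for H2 against normal. At an unadjusted p under 0.05, 1 neighbour before Dlk1 was higher in H2 than in normal cells, and beyond Dio3 4 were higher and 2 lower. Of all probe sets, 9.89% were higher and 8.99% lower in H2 at that level. The highest neighbour in H2 was Eif5, a translation initiation factor, at 9.49 in H2, 7.75 in H1 and 7.25 in normal cells (H2 minus normal 2.25 ± 0.79, limma adjusted p = 0.144). That difference was larger than those of Rian 1452899_at (1.98) and Rian 1428055_at (2.12) in H2. It was also larger than those of every Mirg and Dlk1 probe set and of most Meg3 probe sets. Yy1, a zinc finger transcription factor, was 1.09 higher in H2, and Bcl11b, a transcription factor of T cells, was 0.74 lower, without passing the test. Within the domain the only other gene measured was Dio3os, the RNA transcribed opposite Dio3, at 2.93 in H2, 2.88 in H1 and 3.09 in normal cells. Rtl1, Dio3 and Begain were not analysed here.

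**Figure D4:**
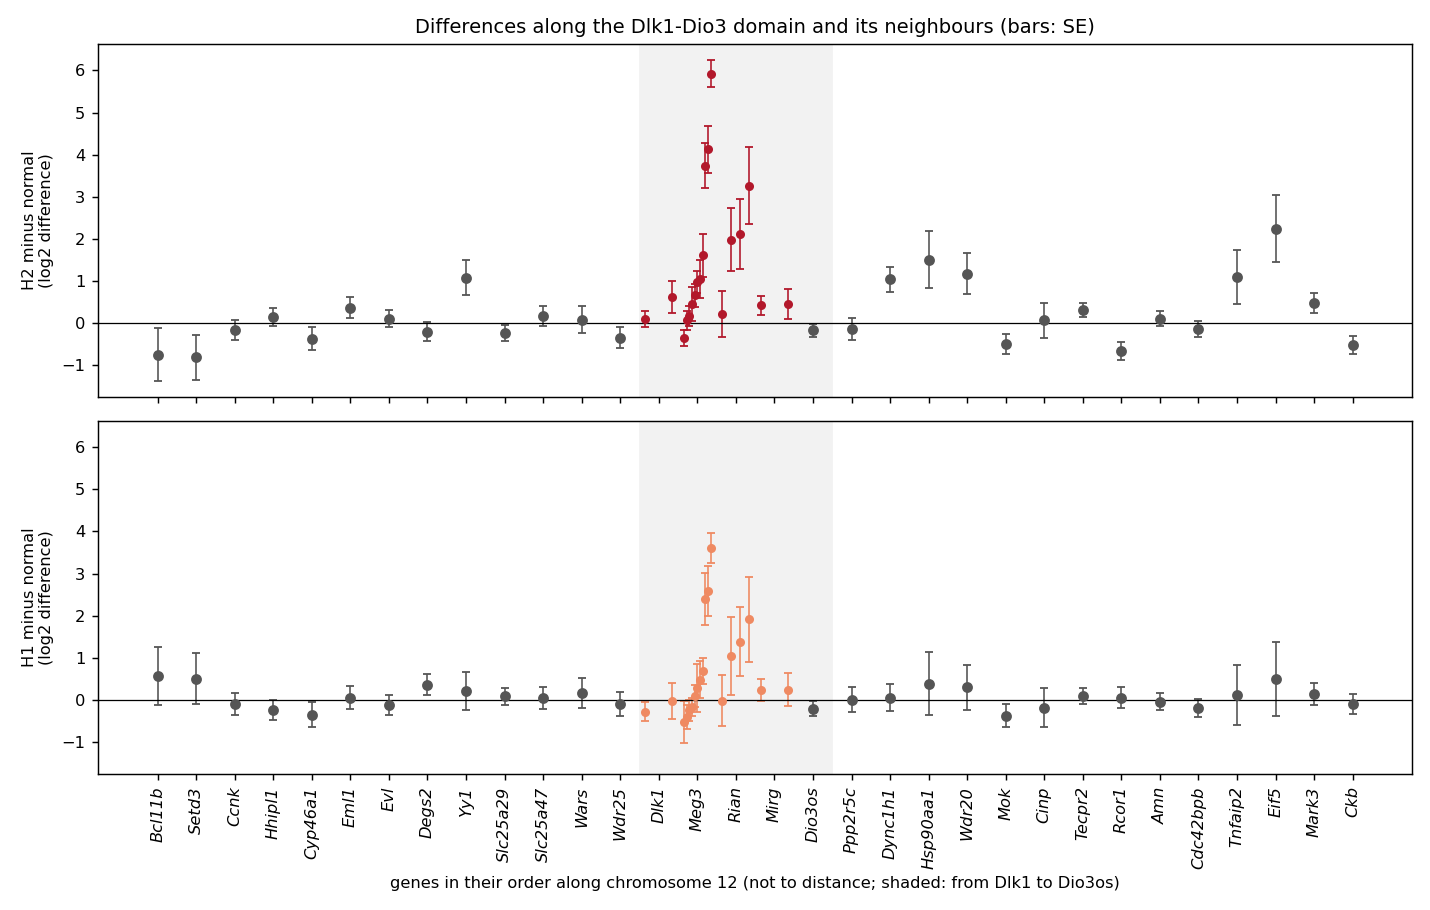
Difference from normal cells (log2, bars show the SE) for H2 (upper panel) and H1 (lower panel), with genes in their order along chromosome 12. Members have 1 point per probe set, ordered by size, and other genes 1 point, and the tallest points in both panels are Meg3, at 5.93 in H2 and 3.60 in H1, with neighbours between -0.81 and 2.25.

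Genes that act on imprints, with Meg3 RNA or beside Dlk1 were followed as lists. Over the 87 measured genes of all lists, the neighbours included, 19 were higher and 7 lower in H2 than in normal cells at an unadjusted p under 0.05, beside 9.89% and 8.99% of all probe sets. For lesions against normal the counts were 10 and 5 (6.3% and 4.76% of all probe sets), and for H1 against normal 1 and 1 (1.63% and 2.21%). For H2 against H1 they were 9 and 3 (6.15% and 5.32%). Each list gene stands for its probe set with the highest mean, whereas these shares cover all probe sets, dim ones included. The counts and shares are thus not like for like, and no excess is read from them. Of the 14 genes of the imprint and DNA methylation machinery, 1 was called for H2 against normal, where 2.04% of all probe sets were. It was Dnmt3a, a de novo DNA methyltransferase, at 6.66 in H2 and 5.67 in normal cells (0.99 ± 0.24, limma adjusted p = 0.044). Dnmt1, the maintenance methyltransferase, differed more but did not pass, at 8.47 in H2 and 6.03 in normal cells (2.44 ± 0.68, limma adjusted p = 0.075). Trim28, a corepressor that protects imprints, was 1.18 lower in H2, and Zfp445, a zinc finger protein with the same task, 1.33 higher, with limma adjusted p of 0.052 and 0.068. The median of the list was -0.03 in H2 and -0.02 in H1, beside -0.08 and -0.05 for all probe sets.

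Of 10 PRC2 genes, 2 were called for H2 against normal, where 2.04% of all probe sets were. Rbbp7, a histone-binding subunit, was at 9.23 in H2 and 7.00 in normal cells (2.24 ± 0.51, limma adjusted p = 0.037), and Eed, which binds the methylated histone tail, at 6.59 in H2 and 4.42 in normal cells (2.17 ± 0.51, limma adjusted p = 0.042). Ezh2, the catalytic subunit, was at 4.42 in H2, 4.19 in H1 and 3.92 in normal cells (H2 minus normal 0.51, limma adjusted p = 0.55). Of 15 fits that left out 1 array, 9 called no PRC2 gene and 10 no gene of the imprint list. No gene of either list was called for lesions or H1 against normal, or for H2 against H1. The p53 list had 7 of 10 genes measured and none called. Their differences from normal ran from -0.52 to 1.22 in H2 (4 higher, 3 lower). In H1 they ran from -0.39 to 0.81 (3 higher, 4 lower). The transcriptional target Cdkn1a was at 5.12 in H2, 5.29 in H1 and 5.47 in normal cells. Mdm2, also a target, was at 4.78, 5.35 and 5.30 in the same groups. Sesn2, another target, had the lowest p of that list between the subtypes, at 6.48 in H2 and 5.41 in H1 (limma adjusted p = 0.34).

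Among 14 Notch receptors, ligands and targets none was called in any of the 4 comparisons. Notch2 was at 9.68 in H2, 8.37 in H1 and 7.91 in normal cells (H2 minus normal 1.77, limma adjusted p = 0.056), and the ligand Jag1 at 7.19, 5.70 and 5.52 in those groups (1.67, limma adjusted p = 0.064). The target Hes1 was at 4.80 in H2, 4.71 in H1 and 4.73 in normal cells. Among imprinted genes of other domains 14 of 15 were measured and none was called. Their median H2 difference from normal was -0.05, with Mest, a hydrolase gene expressed from the paternal allele, at 4.44 in H2, 3.70 in H1 and 3.42 in normal cells (H2 minus normal 1.02, limma adjusted p = 0.087), and Ndn at 5.27 in H2, 7.73 in H1 and 6.77 in normal cells. The lists were chosen with earlier results of these arrays known.

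The captures also differed in markers of cell types. The mean log2 level of 6 alveolar type 2 markers was 8.46 to 10.26 in H2, 7.73 to 9.43 in H1 and 4.31 to 10.00 in normal arrays, and all 6 had higher means in lesions. Surfactant protein C, which defines these cells, averaged 11.40 in H2, 11.29 in H1 and 9.94 in normal cells. The mean of 6 alveolar type 1 markers was 6.87 to 7.33 in H2, 6.27 to 7.15 in H1 and 4.54 to 9.16 in normal arrays. That of 6 endothelial markers was 4.40 to 5.04, 4.37 to 4.94 and 4.13 to 6.61 in the same groups. Of the type 1 markers 2 had a higher mean in lesions and 4 a lower one. All 6 endothelial markers had lower means in lesions. The mean of 6 fibroblast markers was 6.06 to 6.61 in H2, 5.58 to 5.90 in H1 and 4.36 to 6.75 in normal arrays, with Col3a1 at 9.14, 7.75 and 7.15 on average, and Tcf21 below 3.99 in all groups. Of 5 smooth muscle and pericyte markers, 1 had a higher mean in lesions and 4 a lower one. The higher one, Pdgfrb, was at 8.07 in H2, 6.64 in H1 and 5.21 in normal cells, whereas Acta2 was at 4.18, 4.88 and 4.65. The means of club, ciliated, neuroendocrine, T and B cell, mesothelial and muscle markers were at most 4.47 in all arrays, apart from neuroendocrine and muscle markers in normal arrays (up to 4.61 and 5.71). The mean of 5 macrophage markers was 5.14 to 5.95 in H2, 4.96 to 5.47 in H1 and 4.54 to 5.67 in normal arrays. The limma test called 1 type 2, 1 fibroblast and 1 of 3 club markers higher in H2 than in normal cells. The club marker was 1.57 higher. Of all probe sets, 2.04% were called in that comparison. The part of cell composition in the Meg3 and Rian values was not tested, and in such bulk captures more cells that make Meg3 cannot be told apart from more Meg3 per cell.

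The genes whose level most resembled Meg3 1439380_x_at over the 15 arrays were Hdc, Mex3c, Tomm20, Muc4, Slc16a1 and Lemd3. They were taken from 18153 probe sets of 11560 genes with a mean above 3.99. Hdc, which makes histamine, had r = 0.93 (Spearman rho 0.91) and averaged 9.28 in H2, 7.71 in H1 and 5.16 in normal cells. Muc4, a membrane mucin, had r = 0.92 (rho 0.82) and averaged 8.70 in H2, 6.69 in H1 and 5.82 in normal cells. The others had r of 0.92 for Mex3c and Tomm20 and 0.91 for Slc16a1, a lactate transporter, and Lemd3, a protein of the inner nuclear membrane. The most opposite genes were Itga8, an integrin subunit (r = -0.89), Sox11, a transcription factor (r = -0.85), and Slfn4 (r = -0.85). Itga8 averaged 5.19 in H2, 6.59 in H1 and 8.25 in normal cells. As deviations from the 3 group means, which leave the group differences out, the most alike were Cited2, Golph3, Prkcsh and Psmc3ip. Their r was 0.92, 0.92, 0.91 and 0.90 in that order (rho 0.74, 0.87, 0.84 and 0.71), and none was among the first 6. Over the 15 arrays, group differences included, their r with Meg3 1452905_at was 0.40, 0.73, 0.26 and 0.19. That of the first 6 genes with 1452905_at was 0.83 to 0.90 on the same measure. The r within groups was computed for 1439380_x_at alone. The highest normal array on 1439380_x_at read 6.03, with the nearest at 4.81. The part of that array in these likenesses was not tested. The arrays share their groups and their breadth, so these likenesses are descriptions over 15 points.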

How the data were processed

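Per the labels' protocols, PicoPure was used to isolate RNA from the laser captured lung cells and WT-Ovation One-Direct to amplify it. What the authors deposited is 1 log2 signal for each probe set and array, made with RMA (background correction, quantile normalization and probe summary) in affy, per the submitters' processing notes, with no version. All 15 columns matched the labels, and 0 were left over. Of 45101 probe sets, 64 array controls were left out.

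Gene symbols came from the platform annotation (34945 probe sets with 1 symbol, 932 with several, 9160 with none listed). The members and gene lists were chosen with earlier results of these data known. Every member probe set is reported separately. A list gene is represented by its probe set with the highest mean, and up to 4 genes with the lowest p could be named from a list, others being named after their values were seen (Yy1, Bcl11b, Ezh2, Cdkn1a, Mdm2, Hes1, Ndn). Of 97 list genes 87 were measured, and Trp53, Gdf15, Bax, Ccdc85c and Traf3 were among those not analysed here. Genes like Meg3 were the 6 highest and 3 lowest by Pearson r, and the 4 highest within groups, without predicted or sex-linked genes.

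Differences were computed with limma (version 3.58.1, R version 4.3.3; lmFit and eBayes). Lesions against normal used 2 groups, and the other comparisons were contrasts of 3 groups with 1 shared estimate of spread. Benjamini-Hochberg adjustment of p-values ran over 45037 probe sets, and an adjusted p under 0.05 was a call. The number of arrays limits the precision. Promoter and microRNA sequences were RefSeq's (GRCm38.p6). That table's gene coordinates served only for the order of genes, since the sources used here name no build for the array.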

Additional observations from a re-analysis of the deposited data

Results flagged for a closer look

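Within groups of 4 or more arrays, 57 groups of member values were examined for a single array whose gap to the nearest other array took up most of the group's range (Dixon's 95% criterion), and 7 met it. For independent values from 1 normal distribution, chance gives about 1 in 20. The groups were H2, all lesions and normal arrays. The lesions include H2 and the probe sets share arrays, so 7 of 57 cannot be set against that rate.

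Normal replicate 1 was high on Meg3 1439380_x_at, at 6.03, with the nearest normal array at 4.81, and low on Rian 1452899_at, at 4.09, with the nearest at 5.83. Both values lay outside the range of the other normal arrays, in opposite directions. Normal replicate 7 was low on Meg3 1452183_a_at, at 4.38 (nearest 4.98). Normal replicate 3 was low on Meg3 1429256_at, at 3.34 (nearest 4.32), and normal replicate 2 high on Meg3 1452906_at, at 4.66 (nearest 4.04). Among the 7 lesions, H2 replicate 7 was high on Rian 1440001_at, at 7.90 (nearest 5.30), and on Dlk1 1449939_s_at, at 5.79 (nearest 4.17). That array also had the widest spread of log2 values of all 15, at 1.68.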

How the results depend on the processing

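Each result was recomputed under up to 24 alternatives, 15 of which left out 1 array. An alternative was skipped where it did not apply to the comparison or left the probe set out. The number of probe sets called for lesions against normal was 76. It was 148 with quantile normalization repeated, 134 with the array's spread as a covariate, 35 without the 2 normal arrays of narrowest spread, and 19 to 340 when 1 array was left out. For H1 against normal it was 1, against 2 with 1 probe set per gene, 21 with the spread as a covariate, 3 without the narrowest arrays, and 1 to 3 with 1 array left out. For H2 against normal it was 919, against 409 with repeated quantile normalization, 502 with only the arrays compared, 347 with the spread as a covariate, 421 without the narrowest arrays, and 204 to 2129 with 1 array left out. For H2 against H1 it was 0, against 1 (Muc4) with 1 probe set per gene or without the narrowest arrays, and 0 to 1 with 1 array left out (Meg3, without normal replicate 1).

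The deviations of same-numbered lesion and normal arrays correlated with r of -0.125 to 0.331, above 0.1 in 4 of 7 pairs. Differently numbered pairs were not examined for comparison, so these values cannot show whether same-numbered captures belong together. The main fits did not take the numbers as pairs. With the replicate number as a block, 112 probe sets were called for lesions, 0 for H1 and 17 for H2 against normal, and 3 members turned their sign between H2 and H1: Meg3 1429257_at (0.056), Meg3 1428765_at (0.32) and Rian 1428055_at (-0.996).

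Of 57 member differences from normal, 9 turned their sign under at least 1 alternative other than leaving out 1 array, all of them below 0.4 in size as reported. With the spread as a covariate these were Meg3 1426758_s_at (-0.23) and Rian 1440001_at (-0.37) for lesions, and Rian 1440001_at (-0.72) and Meg3 1436057_at (-0.10) for H2. Between H2 and H1, where no member passed, the sign also turned for Meg3 1429256_at with centred medians (0.0052) and with the spread as a covariate (0.25), for Meg3 1428765_at (0.38) and Rian 1440001_at (-0.63) with that covariate, and for Rian 1452899_at with repeated quantile normalization (-0.18). With 1 array left out, H2 minus H1 ran from -0.45 to 0.27 for Meg3 1429256_at, from -0.23 to 0.11 for Meg3 1428765_at, from -0.15 to 0.21 for Meg3 1452906_at, from -0.14 to 1.70 for Rian 1452899_at, from -0.605 to 0.78 for Rian 1440001_at and from -0.048 to 0.55 for Mirg 1440097_at. The causes were not tested. Values near 3.99 limit what can be said of Mirg 1457030_at, Dlk1 and Meg3 1436057_at, 1429257_at, 1452906_at and 1428765_at. Meg3 1426758_s_at (3.71 in H1, 4.24 in normal cells) and 1436713_s_at (4.07 and 3.77) were also near it in those groups.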
